A study of Mus musculus with 8 samples.

Results

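The genes described here are 34 carriers, receptors and pumps with which brain capillaries move solutes: 26 solute carriers including Mfsd2a, the transferrin receptor Tfrc and 7 ATP-driven pumps, out of 18194 named genes on the array. They were chosen by name, with earlier results of these data known. Each was read by the probe set (a group of short probes against a transcript) with the highest mean over the 8 arrays among those annotated to that gene alone. All 34 had such a probe set, and 32 were bright enough to test. RNA came from microvessel fragments, with their pericytes, that beads carrying an antibody against the endothelial protein PECAM had pulled from dissociated mouse brains at postnatal day 1. The 4 mutant brains carried the D849V knock-in allele of Pdgfrb, labelled as a constitutively active receptor in pericytes, and the 4 control brains were wild type. All 8 were of a mixed 129S/J background, and each gave 1 array hybridised with cRNA from 6 ug of total RNA. Zygosity, litters and any Cre driver are not stated in the labels, and no batch is named. The endothelial cells that carry the barrier were sampled together with pericytes and whatever else clung to the fragments.

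Endothelial cells of the brain are sealed by tight junctions, so that nutrients and hormones reach the tissue through membrane carriers and many drugs are returned to the blood by pumps. Glucose, lactate, amino acids, thyroid hormone, vitamins and metals each have carriers of their own, some on the blood side of the cell and some on the brain side. Pericytes lie on the outside of the same vessels and are known to shape the barrier during development. ATP-binding cassette pumps, such as P-glycoprotein, spend ATP to expel lipophilic compounds.

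Transporter signals were lower in the mutant microvessels: 11 of the 32 tested fell and none rose. The organic anion carrier Slc22a8 fell by 0.88 on the log2 scale (1.84-fold lower), the neutral amino acid carrier Slc1a4 by 0.77, the organic anion carrier Slco1a4 by 0.77 and the transferrin receptor Tfrc by 0.63. The smallest of the 11 falls was that of the large neutral amino acid carrier Slc7a5, at 0.50. These calls are from limma's test with Benjamini-Hochberg adjustment over all 11446 genes tested. At an unadjusted limma p under 0.05, 21 transporters were lower and 0 higher. Rank 2354 by p of all 11446 genes, counted in either direction, still met that limit. Later counts at this limit from the same fit share this background. The share of tested transporters that fell was 34.4%, beside 1.92% of all tested genes called lower. Of all genes tested, 2.66% were called higher.

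A negative difference was measured in 31 of the 32 transporters, against 69.1% of all genes tested, and the median difference was -0.40 against -0.11 on the log2 scale. In 19 transporters (59.4%) every mutant value lay below every control value, which was so in 10.4% of all tested genes. Most members were bright. Among genes above a log2 value of 10 on at least 4 arrays, a filter added after seeing the data, 12 of 22 transporters were called lower, beside 5.98% of the 2376 genes, and their median difference was -0.40 against -0.07. The 12 were 8 of the 11 above together with the taurine carrier Slc6a6, the zinc and manganese carrier Slc39a8 and the pumps Abcb1a and Abcg2.

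**Figure D1:**
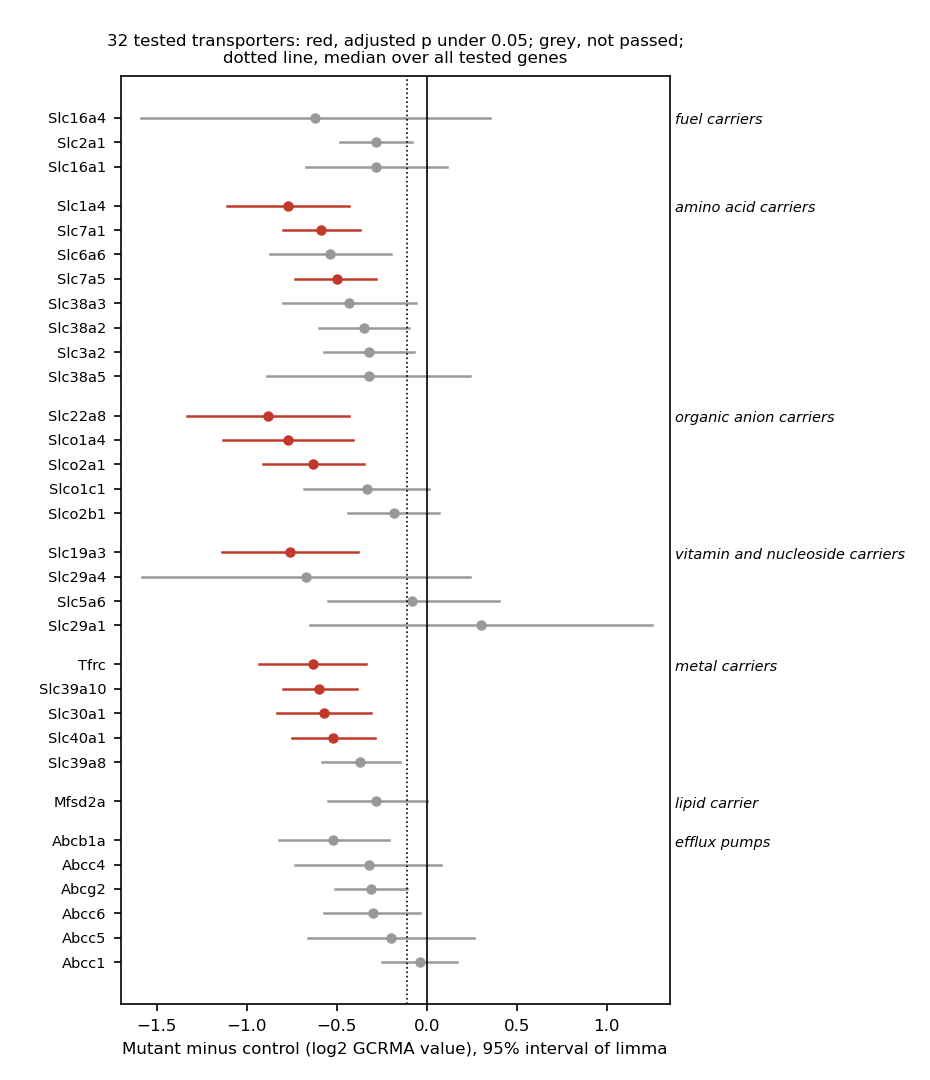
Mutant minus control difference of each of the 32 tested transporters on the log2 scale (points) with its 95% interval from limma (lines), grouped by what the genes carry. Red marks the 11 with an adjusted p under 0.05, all to the left of 0, and the dotted line is the median of all tested genes at -0.11.

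**Figure D2:**
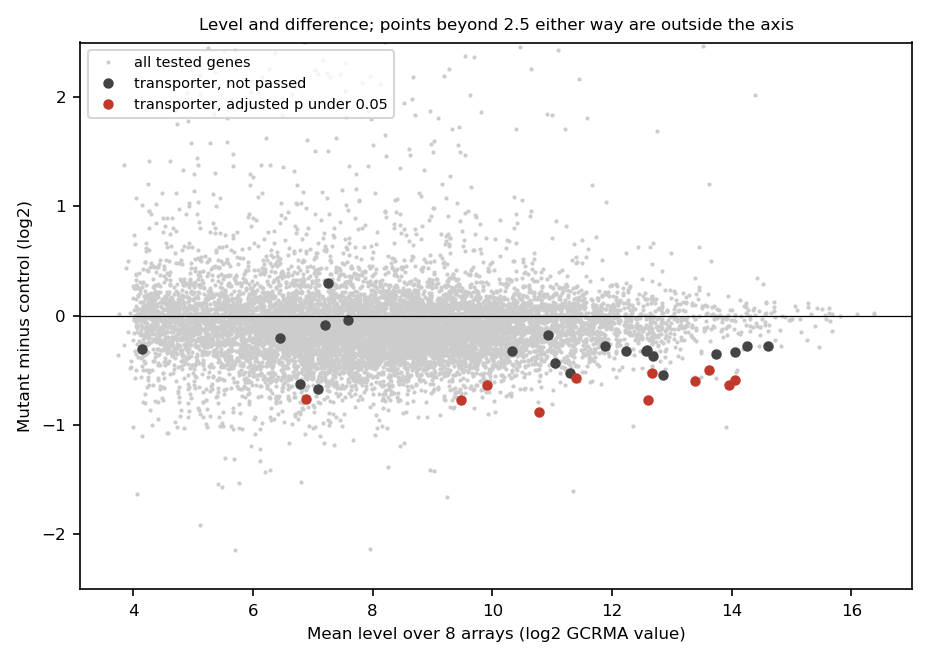
Mean log2 GCRMA value over the 8 arrays (x axis) against the mutant minus control difference (y axis) of all 11446 tested genes (grey), with the 32 transporters as large points. The 11 that fell (red) lie between -0.50 and -0.88.

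How many transporters passed depended on single arrays, on scaling and on the choice of probe sets, filter and covariate. Without mutant array 1, 2, 3 or 4 the counts of falls were 5, 5, 4 and 6, and without control array 1, 2, 3 or 4 they were 7, 3, 3 and 4. Those called without mutant array 1 were 4 of the 11 and Abcb1a, and in each other case all were among the 11. No array left out alone gave a rise. With each array centred on its median, 4 fell (Slc7a1, Slc39a10, Slco1a4 and Slc22a8), and the split over all genes moved from 304 higher and 220 lower to 336 higher and 115 lower. Without a filter on low values 4 fell (Slc7a5, Slc7a1, Slc40a1 and Slc39a10), and with the mean of all probe sets of a gene 3 did (Slc7a5, Slco1a4 and Abcb1a). Slc7a5 and Slco1a4 have only 1 probe set each, so the mean left their values unchanged. Every one of the 11 with more than 1 probe set lost its call there. With the Y-linked genes as a covariate 7 fell, the 11 without Slco1a4, Slc22a8, Slc19a3 and Tfrc. Centred on their means, the Y-linked genes averaged -3.66 on mutant array 2 and -3.70 on control arrays 1 and 4. On every other array they averaged 2.14 to 2.34. One of them, Kdm5d, read 2.18, the lowest value of the data, on those low arrays. By these genes, sex was mixed within both groups and unevenly split between them. With array weights 18 fell, the 11 among them, and the split over all genes was 895 higher and 2263 lower. Slc7a1 and Slc39a10 passed without each of the arrays in turn, at limma adjusted p of at most 0.0382 and 0.0328. Each of these genes lost its call with the mean of its probe sets and with the replicate number as a block. Each also lost it with arrays scaled to endothelial markers.

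Endothelial markers were lower on some of the same arrays. Of all genes tested, 69.1% had a negative difference, 1.92% were called lower and the median difference was -0.11. Of 25 general endothelial markers tested, 22 had a negative difference, 1 fell and none rose. At an unadjusted limma p under 0.05, a limit that rank 2354 of all 11446 genes still met, 7 markers were lower and 0 higher. The median difference of the markers was -0.24. Their mean level ran from 10.89 to 11.39 on the mutant arrays and from 11.27 to 11.58 on the control arrays, and no marker on the array was under the filter on all arrays. The one that fell was Adgrf5, an adhesion receptor of endothelium, by 0.48 (SE 0.103, limma adjusted p = 0.0372). With each array scaled to the mean of the gene-centred endothelial markers, an alternative added after seeing the data, the median of the transporters was -0.21 (0.08 for all genes), 28 of 32 stayed negative, 7 had an unadjusted p under 0.05 and none passed. With the median over the markers instead, the transporters' median was -0.03 (0.26 for all genes), 16 were negative and none passed. Few genes of any kind were called lower under these scalings: over all genes the mean gave 347 higher and 7 lower, and the median 593 higher and 6 lower. All 11 transporters that fell kept a negative difference under both. Fragments with fewer endothelial cells and cells with less RNA of a transporter cannot be told apart in these bulk samples.

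On single arrays the transporters and the markers moved together only in part. With each gene centred on its mean, the 32 transporters averaged -0.23, -0.15, -0.11 and -0.36 on mutant arrays 1 to 4 and 0.29, 0.24, 0.13 and 0.19 on control arrays 1 to 4, so the groups did not overlap. The endothelial markers averaged 0.07, -0.03, 0.02 and -0.43 on the mutant arrays and 0.26, 0.14, -0.05 and 0.02 on the control arrays, and the groups overlapped. The 13 junction and vesicle genes of endothelium averaged 0.01, -0.16, -0.07 and -0.30 on the mutant arrays and 0.28, 0.11, 0.03 and 0.11 on the control arrays, so they too did not overlap between the groups. Mutant array 4 was the lowest and control array 1 the highest in all 3 lists.

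**Figure D3:**
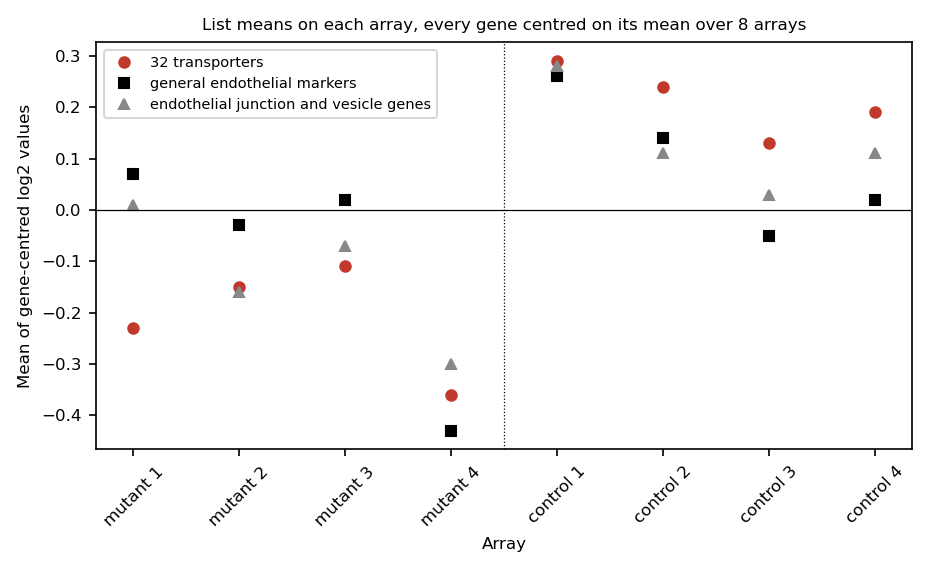
Mean of the gene-centred log2 values on each of the 8 arrays (x axis) for the 32 transporters (red), the 25 general endothelial markers (black) and 13 junction and vesicle genes (grey). The transporters lie between -0.36 and -0.11 on the mutant arrays and between 0.13 and 0.29 on the control arrays, the junction and vesicle genes are also separate (at most 0.01 against at least 0.03), and the endothelial markers overlap.

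Amino acid carriers formed the largest group, and 3 of the 8 tested fell, Slc7a1, Slc7a5 and Slc1a4, while 7 had an unadjusted limma p under 0.05. Slc7a1 is the carrier of arginine and lysine. Its log2 values were 13.60, 13.80, 13.87 and 13.83 on mutant arrays 1 to 4 and 14.26, 14.36, 14.49 and 14.32 on control arrays 1 to 4. All mutant values lay below all control values, and the fall of 0.59 (SE 0.094, 95% interval -0.80 to -0.37, limma adjusted p = 0.010) made the signal 1.5-fold lower. Its other tested probe set, with a mean of 13.55, differed by -0.43 with groups that overlapped (limma adjusted p = 0.434 over all probe sets).

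Slc7a5 is the light chain of the exchanger of large neutral amino acids, which also carries thyroid hormone and L-DOPA. It read 13.35, 13.18, 13.46 and 13.47 in the mutants and 13.73, 13.98, 13.84 and 13.94 in the controls. The groups did not overlap, and the fall was 0.50 (SE 0.10, 95% interval -0.73 to -0.28, limma adjusted p = 0.0262). Slc3a2, the heavy chain that Slc7a5 needs to reach the membrane, read 12.50, 12.41, 12.51 and 12.20 in the mutants against 12.90, 12.76, 12.54 and 12.71 in the controls. Its groups did not overlap either, but the difference of -0.32 (SE 0.110) did not pass (limma adjusted p = 0.152).

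Slc1a4, which exchanges serine, alanine and cysteine, gave 12.29, 12.03, 12.10 and 12.45 in the mutants and 12.63, 13.22, 13.07 and 13.02 in the controls. Control array 1 stood nearest to the mutants. The fall of 0.77 (SE 0.15, 95% interval -1.11 to -0.43, limma adjusted p = 0.0248) rested on the brightest of 3 probe sets, and the other probe sets differed by -0.22 and -0.11.

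The other amino acid carriers were lower without passing. Slc6a6, the taurine carrier, read 12.39, 12.85, 12.73 and 12.34 against 13.31, 13.17, 13.09 and 12.89 in mutants and controls, without overlap, a difference of -0.54 (limma adjusted p = 0.0861). Slc38a2, a sodium-coupled neutral amino acid carrier, read 13.32, 13.68, 13.58 and 13.68 against 13.83, 13.80, 13.99 and 14.02, again without overlap (-0.35, limma adjusted p = 0.123). Its relatives Slc38a3 and Slc38a5, which carry glutamine, overlapped between the groups, at -0.43 (95% interval -0.80 to -0.06) and -0.32 (95% interval -0.89 to 0.24). Slc7a3, a second cationic amino acid carrier, read 2.40 on all 8 arrays, near the lowest value of the table, and was not tested.

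Carriers of organic anions, hormones and prostaglandins included 3 falls among 5 tested. Slc22a8, which takes up organic anions on the abluminal side, read 9.92, 10.70, 10.24 and 10.50 on the mutant arrays and 10.83, 11.40, 11.42 and 11.24 on the control arrays. The highest mutant and lowest control values were close to each other, and the fall was 0.88 (SE 0.196, 95% interval -1.33 to -0.43, limma adjusted p = 0.0440). Its other probe set differed by -0.20, with groups that overlapped.

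Slco1a4, a multispecific organic anion carrier, read 8.99, 9.25, 9.32 and 8.83 in the mutants and 9.65, 10, 9.66 and 10.14 in the controls. The groups were separate and the fall was 0.77 (SE 0.157, 95% interval -1.13 to -0.41, limma adjusted p = 0.0306). Slco2a1, the prostaglandin carrier, read 9.50, 9.82, 9.50 and 9.58 against 10.19, 10.43, 10.30 and 9.99. It fell by 0.63 (SE 0.122, 95% interval -0.91 to -0.35, limma adjusted p = 0.0246), also without overlap.

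Slco1c1, the thyroxine carrier typical of brain capillaries, read 14.02, 14.03, 14.04 and 13.46 in the mutants and 14.40, 14.31, 14.09 and 14.09 in the controls. The values just failed to overlap, and the difference of -0.33 (95% interval -0.68 to 0.01) did not pass (limma adjusted p = 0.259). Slco2b1, another organic anion carrier, differed by -0.18 with overlapping groups.

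Metal carriers gave the highest share of calls among groups that held only 1 to 8 tested members. On the brightest probe sets 4 of 5 fell, all 5 had an unadjusted limma p under 0.05, and in all 5 mutants and controls did not overlap. Over all genes tested, 1.92% were called lower and in 10.4% every mutant value lay below every control value. The other probe sets of these 5 genes all overlapped between mutants and controls, and none passed. Slc39a10, a zinc importer, read 12.98, 13.13, 13.22 and 12.98 in the mutants and 13.73, 13.57, 13.68 and 13.71 in the controls. It fell by 0.60 (SE 0.090, 95% interval -0.80 to -0.39), and its limma adjusted p of 0.00681 was the smallest of the 32. Its dimmer probe set differed by -0.41 with groups that overlapped (limma adjusted p = 0.611 over all probe sets). Slc30a1, a zinc exporter, which moves the metal the opposite way, read 11.18, 11.11, 11.04 and 11.11 against 11.38, 11.84, 11.78 and 11.70. Mutant values were within 0.14 of each other there, and the fall was 0.57 (SE 0.113, 95% interval -0.83 to -0.31, limma adjusted p = 0.0266).

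Iron entry and exit were both represented among the falls. Tfrc, the receptor that takes up transferrin-bound iron, read 13.72, 13.83, 13.59 and 13.40 in the mutants and 14.24, 14.54, 14.13 and 14.17 in the controls. It fell by 0.63 (SE 0.130, 95% interval -0.93 to -0.34, limma adjusted p = 0.0311) on the brightest of its 6 probe sets. The others differed by -0.22 to -0.88, overlapped between the groups and did not pass (limma adjusted p of 0.190 to 0.697 over all probe sets). Slc40a1 is ferroportin, the iron exporter, and read 12.55, 12.27, 12.54 and 12.29 against 12.97, 12.99, 12.95 and 12.81. Its fall was 0.52 (SE 0.099, 95% interval -0.75 to -0.29, limma adjusted p = 0.0236). On its brightest probe set neither gene overlapped between the groups. Slc39a8, an importer of zinc and manganese, read 12.64, 12.44, 12.62 and 12.32 against 12.92, 12.91, 12.80 and 12.86, a difference of -0.37 (SE 0.096) that missed the threshold (limma adjusted p = 0.0769).

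Of 4 vitamin and nucleoside carriers, 1 fell. Slc19a3, a thiamine carrier, read 6.56, 6.50, 6.65 and 6.31 in the mutants and 7.26, 7.73, 6.94 and 7.14 in the controls. The fall of 0.76 (SE 0.168, 95% interval -1.14 to -0.38, limma adjusted p = 0.0423) had no overlap between the groups but was near the threshold. Slc5a6, the carrier of biotin and pantothenate, differed by -0.08 (95% interval -0.55 to 0.40), and Slc29a4, a monoamine carrier of the nucleoside carrier family, by -0.67 (95% interval -1.58 to 0.24).

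Slc29a1, the equilibrative nucleoside carrier, was the only one of the 32 tested members with a positive difference. It read 7.63, 7.53, 7.93 and 6.53 in the mutants and 8.19, 6.78, 6.49 and 6.95 in the controls, a difference of 0.30 (95% interval -0.65 to 1.25, limma adjusted p = 0.712). Mutant array 4 and control array 1 lay on the opposite side of their groups. Without those 2 arrays, a choice made after seeing the data, the difference was 0.96 and passed upwards (limma adjusted p = 0.0284, over all alternatives 0.0284 to 0.923), while 6 transporters fell, all of them among the 11.

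None of the 3 fuel carriers passed. Of the 3, 1 had an unadjusted limma p under 0.05, a limit that rank 2354 of all 11446 genes still met. Slc2a1, the glucose carrier GLUT1 of the barrier, read 14.47, 14.40, 14.55 and 14.47 in the mutants and 14.71, 14.77, 14.62 and 14.91 in the controls. The groups did not overlap, yet the difference was small, at -0.28 (SE 0.088, 95% interval -0.48 to -0.08, limma adjusted p = 0.127). Slc16a1, the monocarboxylate carrier of lactate and ketone bodies, differed by the same amount, -0.28 (95% interval -0.67 to 0.11), with overlap. Slc16a4, a relative of it, differed by -0.62 with a wide interval (-1.59 to 0.35). Mfsd2a, which carries lysophospholipids with docosahexaenoic acid and restrains transcytosis, read 11.84, 11.65, 11.95 and 11.54 against 12.04, 12.20, 11.83 and 12.02. Its groups overlapped, and the difference of -0.28 did not pass (limma adjusted p = 0.242).

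No efflux pump passed on its brightest probe set, although all 6 tested had a negative difference. Among them 3 had an unadjusted limma p under 0.05, a limit that rank 2354 of all 11446 genes still met. Abcb1a, the P-glycoprotein gene of rodent brain capillaries, read 11.34, 11.12, 10.93 and 10.72 in the mutants and 11.59, 11.59, 11.58 and 11.43 in the controls. The groups did not overlap, and the difference was -0.52 (SE 0.135, 95% interval -0.82 to -0.21, limma adjusted p = 0.0774). Its dimmer probe set read 10.45, 10.56, 10.44 and 10.39 against 10.94, 11.24, 11.17 and 11.01 and fell by 0.63 (limma adjusted p = 0.0114 over all probe sets). Abcb1b, its close paralog, was under the filter on all 8 arrays, at 2.18 to 3.41. Probes of such close paralogs may share signal.

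Abcg2, the breast cancer resistance protein, read 12.49, 12.47, 12.46 and 12.29 in the mutants and 12.74, 12.87, 12.65 and 12.69 in the controls, without overlap, a difference of -0.31 (SE 0.087, limma adjusted p = 0.0945). None of the multidrug resistance proteins of the ABCC family passed. Abcc4 differed by -0.32, Abcc6 by -0.30, Abcc5 by -0.20 and Abcc1 by -0.04 (95% interval -0.25 to 0.17), and all 4 overlapped between the groups. Abcc6 lay close to the filter, at 3.70 to 4.35.

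**Figure D4:**
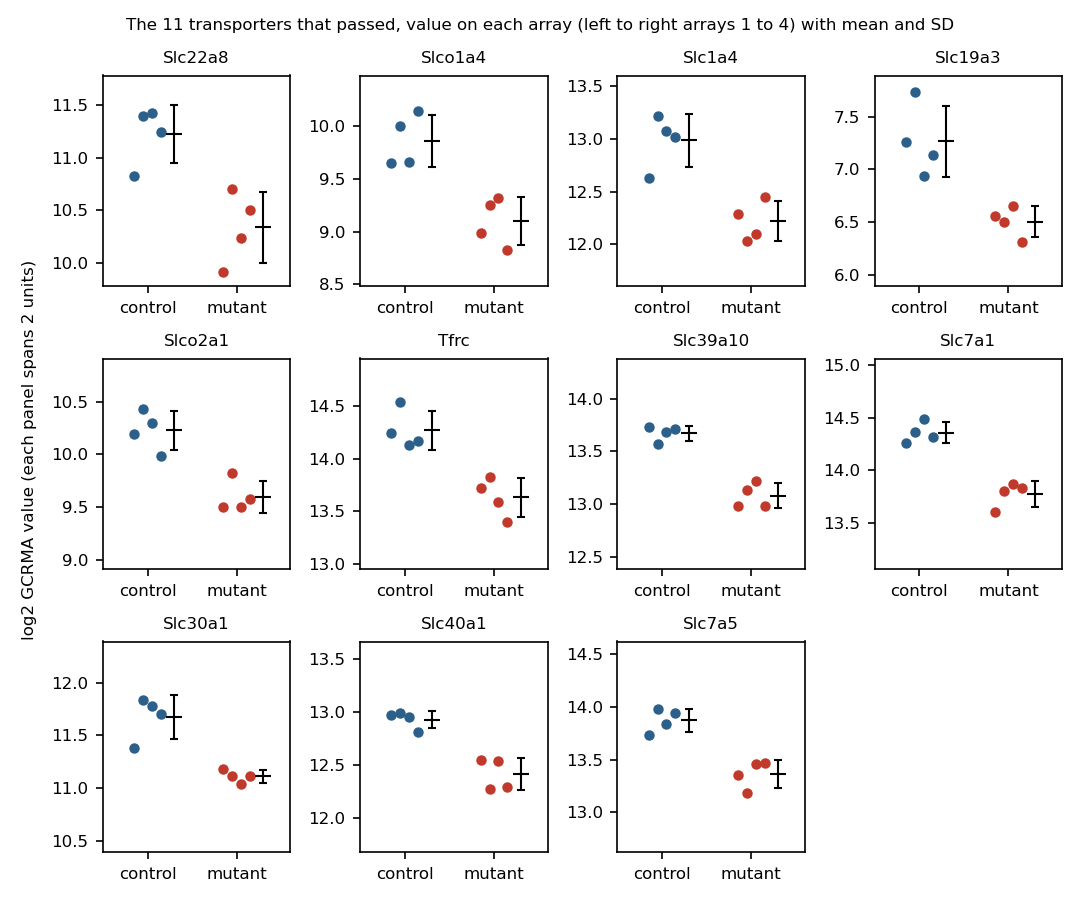
log2 GCRMA value (y axis, each panel 2 units high) of the 11 transporters that fell on the 4 control arrays (blue) and 4 mutant arrays (red), with the mean and SD of each group as a bar. In every panel all red points lie below all blue points.

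Apart from Slc7a1 and Slc39a10, each fall lost its call without some single arrays, always with a negative difference. Slc40a1 lost it without mutant array 2 or control array 1, 2 or 3 (adjusted p up to 0.0749), and Slco2a1 without mutant array 1 or 3 or control array 1, 2 or 3 (up to 0.0866). Slc7a5 and Slc1a4 lost it without mutant array 1, 2 or 3 or control array 2, 3 or 4 (up to 0.0958 and 0.0866), and Slc30a1 without mutant array 2, 3 or 4 or control array 2, 3 or 4 (up to 0.0934). For Slco1a4 these were mutant arrays 1, 2 and 4 and control arrays 2, 3 and 4 (up to 0.0904), and for Slc22a8 mutant arrays 1, 3 and 4 and control arrays 2, 3 and 4 (up to 0.129). Slc19a3 lost the call without any mutant array or control array 1 or 4 (up to 0.0949). Tfrc lost it without mutant array 1, 3 or 4 or any control array (up to 0.101). These adjusted p are limma's, from fits to 7 arrays.

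The remaining probe sets of the same genes mostly pointed the same way. Beside the 32 chosen, 29 further probe sets passed the filter, 27 of them with a negative difference and a median of -0.36. Tested singly over 22310 probe sets, 11 of the 61 transporter probe sets fell, beside 0.780% of all, and none rose. They were 9 of the 11 chosen ones, without those of Slc22a8 (limma adjusted p = 0.0684) and Slc19a3 (limma adjusted p = 0.0662), and the dimmer ones of Abcb1a and Slco2a1. Of 8 fallen genes with a further tested probe set, all 15 such probe sets were negative and 1 passed.

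The prostaglandin carrier Slco2a1 had 4 probe sets, of which 3 differed by -0.63, -0.78 and -0.89 without overlap. The last differed by -0.09 and read 5.03, 5.79, 5.19 and 3.99 in the mutants and 7.05, 4.53, 4.43 and 4.35 in the controls. Control array 1 had the highest value and mutant array 4 the lowest. The same arrangement, mutant array 4 lowest of its group and control array 1 highest of its group, was found in 22 of the 61 transporter probe sets (36.1%) and in 17.7% of all 22310. It was present in the second probe sets of Slc7a1, Slc1a4, Slc22a8, Slc39a10, Slc40a1, Slc39a8 and Slc6a6, and none of the 22 passed. What sets these arrays apart was not tested.

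**Figure D5:**
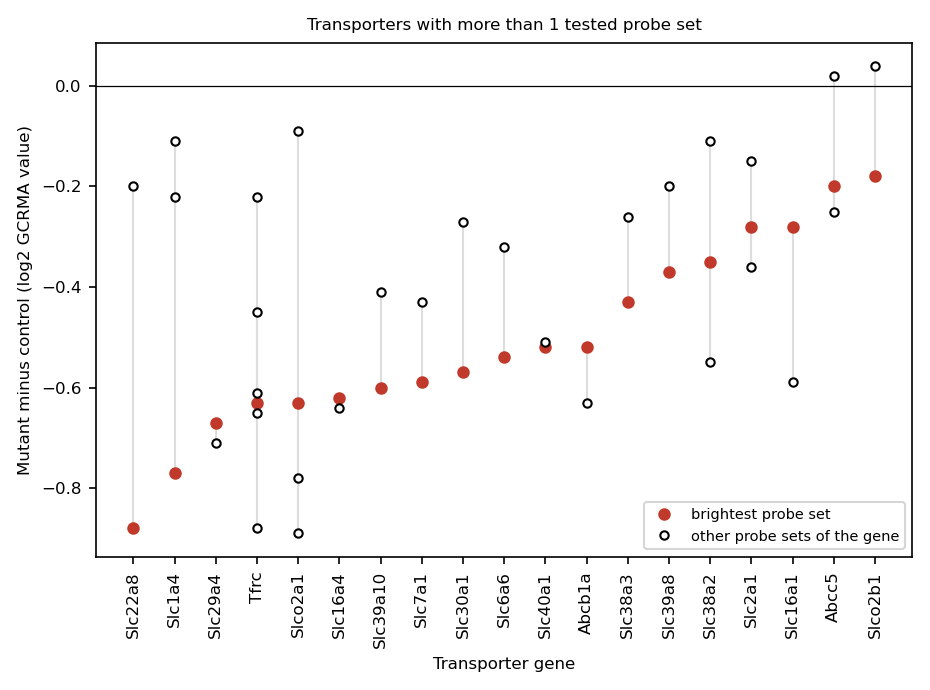
Mutant minus control difference on the log2 scale (y axis) for every tested probe set of the 19 transporters that had more than 1 (x axis), with the brightest probe set in red and the others open. All but 2 of the open points lie below 0, and within Slc22a8 and Slc1a4 the open points lie much nearer to 0 than the red one.

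Tfrc is also one of the genes by which the array checks RNA integrity, with probe sets at the 3′ end and the 5′ end of the transcript. The 3′ minus 5′ difference was -0.09, 1.10, 0.91 and 1.98 on mutant arrays 1 to 4 and 0.76, 0.79, 0.89 and 1.63 on control arrays 1 to 4. Its group means were 0.97 ± 0.85 and 1.02 ± 0.41 (SD, n = 4 each). For Actb the mutants gave 1.03 ± 0.03 and the controls 0.99 ± 0.04, and for Gapdh these were 0.08 ± 0.04 and 0.06 ± 0.08 (SD, n = 4 each). Mutant array 4 had the largest value for Tfrc but not for Actb or Gapdh. The part of RNA quality in the transporter differences was not tested.

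The upstream sequences of the fallen genes were searched for short motifs, to show what the data can be set against. Promoter windows of 250 bases before the start of the gene (RefSeq, build GRCm38.p6) were at hand for 27 of the 34 members and 9 of the 11 that fell. The motifs, searched on both strands, were CTTTGA, the core of TCF/LEF sites through which Wnt and beta-catenin act, TGATGNAA of the amino acid response element, TTCNNNGAA of STAT sites, TGCGCNC of the metal response element, and the interferon-stimulated response element. The TCF/LEF core was in 10 of the 27 members and 3 of the 9 fallen ones, against 15.8% of all 27025 genes with a window. The amino acid element was in 1 member (3.9% of all genes), the STAT site in 4 (8.1%), the metal element in 5 (14.0%) and the interferon element in 0 (3.5%). A match describes these letters and no binding, and its absence says nothing of the factor.

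The 4 windows of fallen genes with a TCF/LEF core or an amino acid element are shown 5′ to 3′ on the strand of the gene, with those matches in capitals, because these elements belong to pathways known to act on barrier carriers. They are Slc7a1 at chr5:148392816-148393065 (minus strand), Slc39a10 at chr1:46925777-46926026 (minus strand), Slc19a3 at chr1:83038449-83038698 (minus strand) and Slco2a1 at chr9:103008237-103008486 (plus strand). Slc7a1 had 3 TCF/LEF matches, from 145 to 140, 134 to 129 and 47 to 42 bases before the start, the first inside a STAT match from 146 to 138. Slc39a10 had its match from 177 to 172 bases before the start and Slc19a3 from 82 to 77. Slco2a1 had the amino acid element from 48 to 41 bases before the start and no TCF/LEF match.
Slc7a1: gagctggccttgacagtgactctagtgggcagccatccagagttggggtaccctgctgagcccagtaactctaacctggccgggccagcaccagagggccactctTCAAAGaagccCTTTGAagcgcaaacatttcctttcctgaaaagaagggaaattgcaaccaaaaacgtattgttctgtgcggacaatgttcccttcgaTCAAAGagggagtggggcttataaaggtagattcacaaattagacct
Slc39a10: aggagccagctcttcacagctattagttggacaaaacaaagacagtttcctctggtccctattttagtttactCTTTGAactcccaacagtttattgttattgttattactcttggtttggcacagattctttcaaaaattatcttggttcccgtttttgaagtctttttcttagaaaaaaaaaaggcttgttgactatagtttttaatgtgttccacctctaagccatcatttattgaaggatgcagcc
Slc19a3: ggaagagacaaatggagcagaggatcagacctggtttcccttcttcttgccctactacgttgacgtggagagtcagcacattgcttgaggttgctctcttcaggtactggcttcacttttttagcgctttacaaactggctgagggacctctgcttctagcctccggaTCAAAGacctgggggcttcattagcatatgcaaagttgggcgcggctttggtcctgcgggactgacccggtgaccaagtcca
Slco2a1: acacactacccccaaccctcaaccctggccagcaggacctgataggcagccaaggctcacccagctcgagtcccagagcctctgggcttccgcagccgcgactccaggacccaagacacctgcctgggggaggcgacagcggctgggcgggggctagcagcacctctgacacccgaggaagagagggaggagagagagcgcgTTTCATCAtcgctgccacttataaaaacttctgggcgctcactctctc

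Other transport genes of vessels were read in the same way. Of 43 tested members of a list of 56 other carriers, pumps and receptors of vessels, 4 fell and none rose. Over all genes tested, 1.92% were called lower. A negative difference was measured in 33 of the 43, beside 69.1% of all genes tested. Their median was -0.31, against -0.11 for all genes. At an unadjusted limma p under 0.05, 15 of the list were lower and 2 higher. Rank 2354 of all 11446 genes still met that limit. Slc43a2, another carrier of large neutral amino acids, read 9.02, 9.18, 9.38 and 9.34 in the mutants and 9.81, 9.82, 9.88 and 9.69 in the controls, a fall of 0.57 (SE 0.102, limma adjusted p = 0.0169). The insulin receptor Insr fell by 0.60 (SE 0.116), the copper importer Slc31a1 by 0.47 (SE 0.093) and the choline carrier Slc44a1 by 0.37 (SE 0.079), with limma adjusted p of 0.0236, 0.0254 and 0.0353, all without overlap. Without mutant array 1, 2, 3 or 4 the list had 1, 4, 2 and 3 falls, and without control array 1, 2, 3 or 4 it had 2, 0, 1 and 1.

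Other cell types were read from their marker lists. Of 13 endothelial junction and vesicle genes tested, 1 fell, the caveolar gene Cavin2 by 0.56 (SE 0.098, limma adjusted p = 0.0160), and the median was -0.31. Of 15 microglia and macrophage markers, 11 rose and none fell, with a median of 2.02 and a mean level of 9.28 to 10.18 on the mutant arrays and 7.51 to 8.39 on the control arrays. Ctss, a lysosomal protease, rose by 2.26 and C1qa, a complement component, by 2.38 (limma adjusted p of at most 0.000596). Of 11 pericyte markers tested, 2 rose and 1 fell, with a median of 0.05, among them Ifitm1, which interferon also induces, by 1.81 and Pdgfrb, down by 1.01 on its brighter probe set. None of 12 neuron, 12 astrocyte and radial glia, 5 oligodendrocyte, 8 choroid plexus and ependymal and 2 erythroid markers passed, and at an unadjusted limma p under 0.05 only 2 neuron markers differed, both higher. The choroid plexus, which shares several of these carriers with capillaries, gave Ttr values of 16.39 ± 0.07 for the mutants and 16.36 ± 0.14 for the controls (SD, n = 4 each). Ttr lay near the highest value of the data, 16.49, so its flat signal cannot show equal choroid plexus content. Clic6, the other named marker, differed by -0.67 (SE 0.531), with overlapping groups. Of the 8 markers in the list 7 had a negative difference, beside 69.1% of all genes tested, and their median was -0.37 against -0.11 for all genes. The mean level of the list ran from 8.76 to 9.85 on the mutant arrays and from 8.87 to 10.38 on the control arrays. The part of microglia or choroid plexus RNA in the transporter differences was not tested.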

How the data were processed

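RNA was measured on 1-colour Affymetrix arrays, 1 per brain. The authors deposited 1 log2 value for each probe set and array. Per the submitters' processing notes the tool was GCRMA; its version is not given in the sources used here. The log2 scale was read from the values, 2.18 to 16.49. Arrays have no depth, and 4 per group limits the precision. GCRMA corrects background by probe sequence and brings dim probe sets to a common floor, so folds of dim genes are uncertain.

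Of 45101 probe sets, 34958 had 1 gene symbol, 932 several and 9211 none here. Each gene took its brightest probe set (by the mean of all 8 arrays), and genes above 4 on at least 4 arrays entered a two-sided limma fit (version 3.58.1, R 4.3.3; lmFit, then eBayes) that had no covariates, with Benjamini-Hochberg adjustment over all 11446 genes and a threshold of 0.05. The fit was run on simulated data with noise drawn independently for each gene and array. Shifts that many genes share on an array were not simulated. Members that passed or did not overlap are given with the value on each array and the rest by differences and counts. From the list of other vascular transporters up to 4 genes, and from other lists up to 2, are named: those called, in order of p, and failing any call the most intense. Members and lists were chosen with earlier results of these data known. The labels call the arrays biological replicates, so the p-values measure the spread between these brains. Alternatives are given in the closing section. Protein sequences were not used here.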

Additional observations from a re-analysis of the deposited data

Results flagged for a closer look

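Among 64 groups of 4 arrays (32 transporters, 2 groups each), 4 held an array far from its group, where chance alone would give about 1 in 20. Slco1c1 read 13.46 on mutant array 4, against 14.02 to 14.04 on the other mutant arrays. Abcg2 read 12.29 on mutant array 4, against 12.46 to 12.49. Abcc5 read 6.84 on mutant array 4, against 6.17 to 6.24, and there the array was the high one. Abcb1a read 11.43 on control array 4, against 11.58 to 11.59 on the other control arrays.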

How the results depend on the processing

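Of 23 alternatives to the chosen analysis, 3 of them chosen after seeing the data, none turned the sign of the 11 fallen transporters where they were tested (the filter at 10 left 8 of them). The number of falls was 4 without a filter, 4 with arrays centred on their median, 0 with arrays scaled to the endothelial markers (by their median or by the gene-centred mean), 3 with the mean of all probe sets of a gene, 7 with the Y-linked genes as a covariate, 18 with array weights, 6 without mutant array 4 and control array 1, and 3 to 7 with single arrays left out. No rise was called in any of these except 1, that of Slc29a1, without mutant array 4 and control array 1. The median difference moved from -0.40 to -0.03 and -0.21 under the endothelial scalings. Over all genes, 524 calls became 3158 with array weights, 251 with the filter at 10 and 303 to 608 with single arrays left out. The 4 falls among other vascular transporters became 1 with arrays centred on their median, 0 under either endothelial scaling, 0 with the mean of probe sets, 15 with array weights and 0 to 4 with single arrays left out.

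With the replicate number as a replicate block, 1 transporter fell, 259 genes were called (221 higher, 38 lower) and 0 of the other transporters fell. The labels do not say whether same-numbered arrays share a litter or batch. Deviations of same-numbered arrays correlated at -0.08, -0.48, -0.20 and 0.30, which cannot settle whether the arrays are paired. A shared litter or batch was not tested.

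Signs turned only among transporters that had not passed. Scaling to the median of the endothelial markers gave Slc2a1 0.09, Slc16a1 0.09, Slc3a2 0.04, Slc38a2 0.02, Slc38a5 0.05, Slco1c1 0.03, Slco2b1 0.18, Slc5a6 0.29, Slc39a8 0.00, Mfsd2a 0.09, Abcg2 0.06, Abcc1 0.33, Abcc4 0.05, Abcc5 0.17 and Abcc6 0.06. The gene-centred endothelial mean gave Slco2b1 0.00, Slc5a6 0.11 and Abcc1 0.14. A second quantile normalization and median centring each gave Slc5a6 0.01 and Abcc1 0.05. Probe sets without a suffix for shared transcripts gave Slco2b1 0.04, the Y-linked covariate Slc5a6 0.04, and array weights Slc16a4 0.04, Slc5a6 0.07 and Abcc4 0.06. With single arrays left out, Abcc1 ran from -0.08 to 0.02 (above 0 without mutant array 1) and Slc5a6 from -0.21 to 0.07 (0.04 without mutant array 4 and 0.07 without control array 1). Without mutant array 4 and control array 1, Slc16a4 read 0.03, Slc38a5 0.05 and Slc5a6 0.19. The causes were not tested. Values near the floor are not resolved.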
